A study of Mus musculus with 384 samples.

Results

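The transcripts of 5 genes used as markers of bile duct epithelium and of liver progenitor cells were followed in the livers of 192 Diversity Outbred mice: Krt19, Krt23, Sox9, Cd24a and Epcam. They were picked by name, and the Ensembl identifiers of the expression table were matched to these names through GENCODE M21, which found all 5 among the 21454 genes of the table. Diversity Outbred mice come from crosses of several inbred founders, so each animal carried its own mix of founder alleles, and the labels gave the genotype of all of them as wild type. The mice were 26 weeks old and had been fed, from weaning on, either chow, of which 6% of the weight was fat, or high fat food with 22%. The first letter of a mouse's name, F or M, matched its labelled sex in every mouse. There were 50 F mice on chow, 48 F mice on high fat, 48 M mice on chow and 46 M mice on high fat, and an outbreeding generation label, G11L1 for 97 mice and G11L2 for 95, ran through all 4 groups. Each mouse was sequenced in 2 technical repeats that the table joined in a single column, so the mouse was the replicate.

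Bile ducts are lined by cholangiocytes, epithelial cells that modify bile and that share an embryonic origin with hepatocytes. Keratins are the filament proteins of epithelia: Krt19 marks cholangiocytes, and Krt23 is another acidic keratin. Sox9 is a transcription factor that sets biliary identity in the embryonic liver and stays on in adult ducts and in some hepatocytes near the portal vein. Cd24a encodes a small glycosylated surface protein of immature epithelial and blood cells, and Epcam an adhesion molecule of ductal and progenitor epithelium. In whole liver, fewer cells of a type and less RNA in each of them cannot be told apart.

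The unit of all values is upper-quartile normalized signal. The depth read from the low values was 9.79 to 17.9 M reads per mouse, with a median of 14.2 M. Hepatocyte genes showed the tissue to be liver, since all 8 of the list were tested and their summed signal lay between 7734 and 58760. Summed pancreatic signal was over 10 times its median in 10 mice, spread over all 4 groups. In 1 chow mouse named F, Xist went against the letter, and the 10 mice least alike the others were all M, 5 on each diet. Leaving out the mice of any of these 3 kinds ended 1 call of a sex or diet difference among the 5 genes, that of Krt23 between diets in M mice without the 10 least alike, and that value stands with Krt23 below.

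Of the 5 genes, 3 lie on chromosome 11. On GRCm38, Krt23 (ENSMUSG00000006777) spans 99477974 to 99493137 and Krt19 (ENSMUSG00000020911) 100140810 to 100148665, both on the minus strand, within the cluster of type I keratin genes. Sox9 (ENSMUSG00000000567) lies further along on the plus strand, at 112782224 to 112787760. Cd24a (ENSMUSG00000047139) lies on chromosome 10 at 43578284 to 43584265, and Epcam (ENSMUSG00000045394) on chromosome 17 at 87635979 to 87651129, both on the plus strand. No other annotated gene overlaps any of them. Of the stretches of 100 bases along their exons, none of Krt19, Krt23, Sox9 or Epcam occurs in another gene's transcripts, and 2 of 2410 of Cd24a also occur in the predicted gene Gm6212.

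All 5 transcripts were above 0 in all 192 mice, and all passed the filter on low values. Per kilobase of merged exon, Krt23 was the most abundant, with a median signal of 3.37 over all mice. Cd24a followed at 0.150, Sox9 at 0.0997, Krt19 at 0.0893 and Epcam at 0.0797. The middle ranges between quartiles of Sox9 (0.0680 to 0.161), Krt19 (0.0674 to 0.113) and Epcam (0.0585 to 0.119) overlapped, and that of Cd24a (0.112 to 0.201) reached into those of Sox9, Krt19 and Epcam. The quartile range of Krt23 (1.15 to 5.90) stood clear of the other 4. Below Krt23 the order turned with sex: in chow M mice the median of Sox9 per kilobase, 0.176, stood above that of Cd24a, 0.106, whereas in high fat F mice Sox9, at 0.0689, was the lowest of the 5, below Krt19 at 0.0868 and Epcam at 0.0973. On the same scale, Krt8 and Krt18, the keratin pair of all liver epithelium, had medians of 21.4 and 18.2, and Krt7, a second cholangiocyte keratin, 0.0173. Median values of Krt19 and Epcam were each worth about 11 reads, against 334 for Krt23, so the levels of Krt19 and Epcam in a single mouse carry a large counting error.

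**Figure D1:**
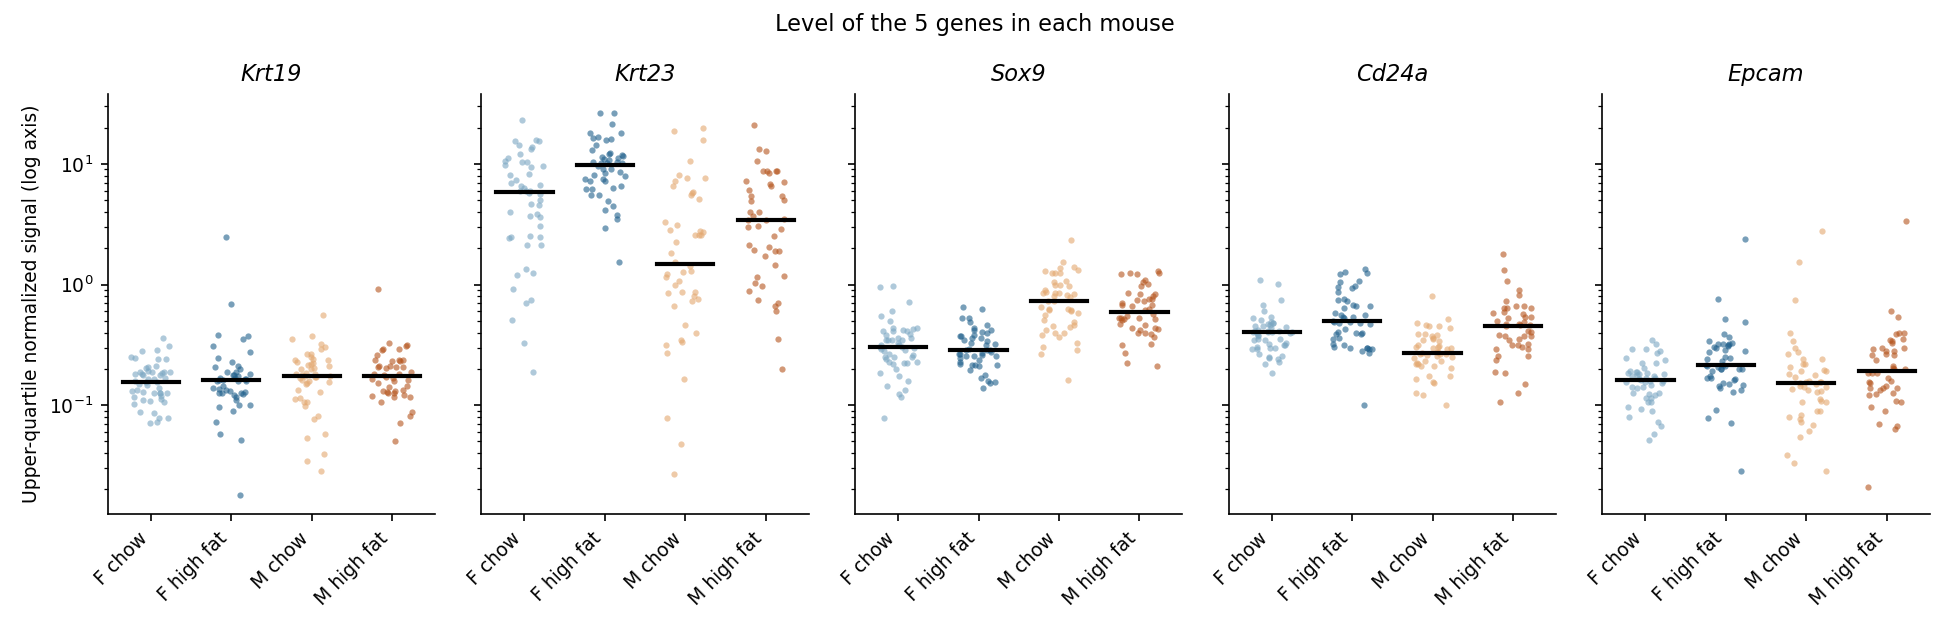
Upper-quartile normalized signal of each gene (y axis, logarithmic) in each of the 192 mice, 1 point per mouse, by group on the x axis, with a black bar at the group median. Krt23 medians were 5.81 and 9.84 in F mice and 1.49 and 3.43 in M mice, Sox9 stood higher in M mice, and single mice stood far above the rest for Krt19 and Epcam.

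The sex and diet differences were tested with limma on log2(signal + 0.0629) over the 14606 genes that passed the filter, as means of the 4 groups with the generation label as a covariate. Adjusted p-values came from limma by the Benjamini-Hochberg method across those genes, and a gene was called at an adjusted p under 0.05. Folds are on the scale of log2(signal + 0.0629), which understates the change of low genes: with a pseudocount 10 times larger the sex difference of Sox9 was 0.47 in place of 0.97, that of Cd24a -0.14 in place of -0.33 and the diet difference of Epcam 0.11 in place of 0.33, each still called. Between the sexes, 3 of the 5 genes were called: Sox9 was higher in M mice, and Krt23 and Cd24a were lower. Of all genes 68.5% were called, 45.0% higher in M mice and 23.5% lower, so 3 called of 5 is near the background. Between the diets, Krt23, Cd24a and Epcam rose on high fat and none of the 5 fell. Of all genes 56.9% were called between diets, 15.0% higher on high fat and 41.9% lower. The median difference between diets was 0.33 for the 5 genes and -0.07 for all genes, and that between sexes -0.03 and 0.07.

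**Figure D2:**
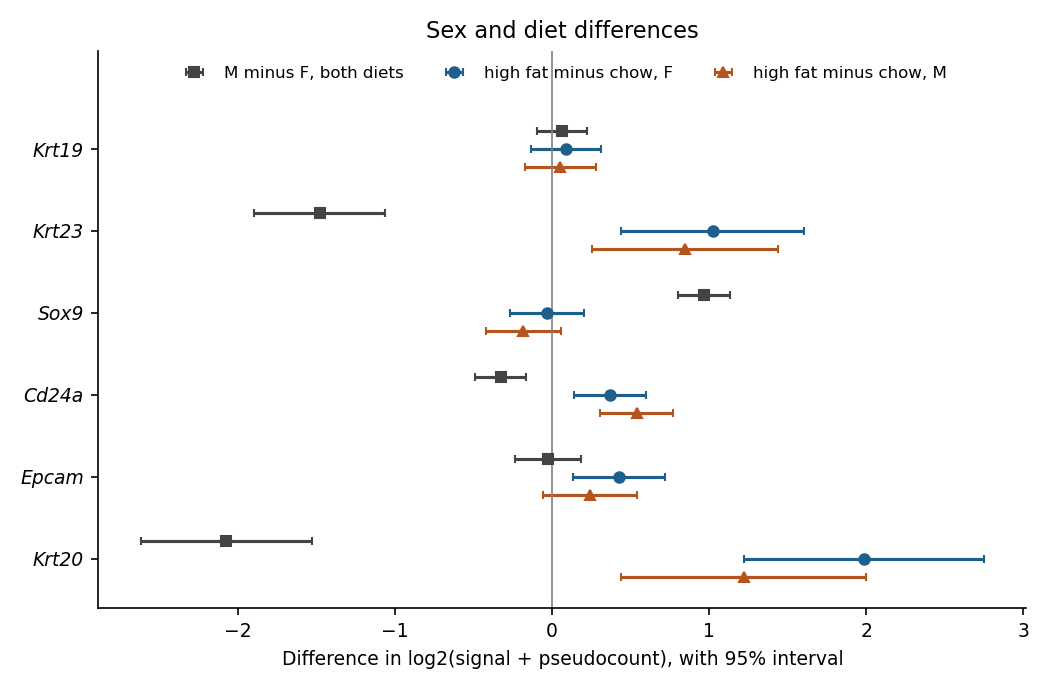
Differences in log2(signal + pseudocount) on the x axis, with 95% intervals, for the 5 genes and for Krt20, the neighbour of Krt23. Squares give M minus F over both diets, circles high fat minus chow in F mice and triangles the same in M mice, and Krt23 and Krt20 lie far left of 0 for sex and right of 0 for diet.

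Krt23 had the widest range. On chow its signal ran from 0.188 through a median of 5.81 to 23.1 in the 50 F mice, and from 0.0270 through 1.49 to 19.8 in the 48 M mice. On high fat it ran from 1.52 through 9.84 to 26.6 in F mice and from 0.200 through 3.43 to 20.9 in M mice. All groups overlapped, yet of the 46 high fat M mice 4 lay above the median of the high fat F mice and 12 below the lowest of them. In M mice Krt23 was lower by -1.48 ± 0.21 (log2 ± SE), so F mice had 2.79 times the M level on this scale (adjusted p = 1.79e-10). This difference was -1.76 ± 0.29 in G11L1 mice alone and -1.16 ± 0.30 in G11L2 mice alone, both called.

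High fat raised Krt23 by 0.93 ± 0.21, 1.91-fold (adjusted p = 6.03e-05). The rise was 1.02 ± 0.29 in F mice (adjusted p = 0.00377), where 39 of 48 high fat mice lay above the chow median. In M mice it was 0.85 ± 0.30 (adjusted p = 0.0132), with 34 of 46 above the chow median. Between the generation labels the rise was uneven: 1.41 ± 0.30 in G11L2 mice (adjusted p = 7.71e-05) and 0.49 ± 0.29 in G11L1 mice, where it was not called (adjusted p = 0.171). That gap was not tested itself. In M mice the call was also lost without the 10 least alike mice (0.66 ± 0.31, adjusted p = 0.0663) and with array weights that count deviating mice less (0.63, adjusted p = 0.0714).

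The scatter of Krt23 between mice differed between groups as well. The SD of its log2 signal was 1.5 in chow F mice, 0.81 in high fat F mice, 1.90 in chow M mice and 1.44 in high fat M mice. Tested as each mouse's absolute deviation from its group median, the scatter was wider in M mice by 0.47 ± 0.14 (adjusted p = 0.0191) and narrower on high fat, with a difference of -0.46 ± 0.14 (adjusted p = 0.0438). Beside Krt23, none of the 5 genes was called for scatter by sex, while Cd24a was wider on high fat by 0.19 ± 0.05 (adjusted p = 0.0318). Of all genes 4.9% were called for scatter by sex and 2.23% for scatter by diet. Once group and generation means were removed, the SD of Krt23 was 1.47, above that of 97.9% of the tested genes, against 88.9% for Epcam and 80.2% to 82.0% for Krt19, Cd24a and Sox9. With a pseudocount 10 times larger, neither call of Krt23 held (0.25, adjusted p = 0.128, by sex and -0.27, adjusted p = 0.113, by diet), and Sox9 was called by sex in its place (0.14, adjusted p = 2.12e-05). The diet call of Krt23 was also lost with quantile normalization (adjusted p = 0.0614), without the mice of high pancreatic signal (0.0726) and without the 10 least alike mice (0.102), and that of Cd24a without the 10 least alike mice (0.0852) and with 0.1 times the pseudocount (0.074). Both calls of scatter by diet were lost in either generation alone, and that of Krt23 by sex held in G11L1 mice (0.70 ± 0.18, adjusted p = 0.0232) and not in G11L2 mice (0.22 ± 0.21, adjusted p = 0.724).

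The 4 genes whose deviations ran most like those of Krt23 over the 192 mice were neighbours of it on chromosome 11. Likeness was Pearson's r of the deviations from the group and generation means, over 12938 named genes, and is given as a description. The 5 most alike were Krt20 (r = 0.63), Gsdma3 (0.57), Cisd3 (0.57), Rpl19 (0.49) and Acaa1b (0.46). Of these, Krt20, Gsdma3, Cisd3 and Rpl19 start 0.0496, 0.852, 1.79 and 1.45 Mb from Krt23, while Acaa1b, a peroxisomal enzyme of fatty acid oxidation, is on chromosome 9. Among the 50 most alike, 14 lay on chromosome 11 and 11 within 10 Mb of Krt23, or 22.0%, against 1.88% of all those genes. For the other 4 genes the same count was 0 for Krt19, Cd24a and Epcam and 3 for Sox9. In G11L1 and G11L2 mice taken apart, r with Krt23 was 0.66 and 0.59 for Krt20, 0.63 and 0.52 for Gsdma3, and 0.55 and 0.44 for Rpl19. That of Cisd3 was 0.57 in both. Genotypes were not used here, so the part of founder alleles that neighbouring genes share was not tested.

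Not every neighbour of Krt23 ran with it. Of the 184 genes within 5 Mb, 7 had an r over 0.4 in size, with a range from -0.43 to 0.63, against 2 of 520 genes at 5 to 30 Mb and 7 of 11863 on other chromosomes. Krt19 starts 0.66 Mb from Krt23 in the same keratin cluster, and its r with Krt23 was -0.03. Sox9, on the same chromosome, had an r of -0.09.

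**Figure D3:**
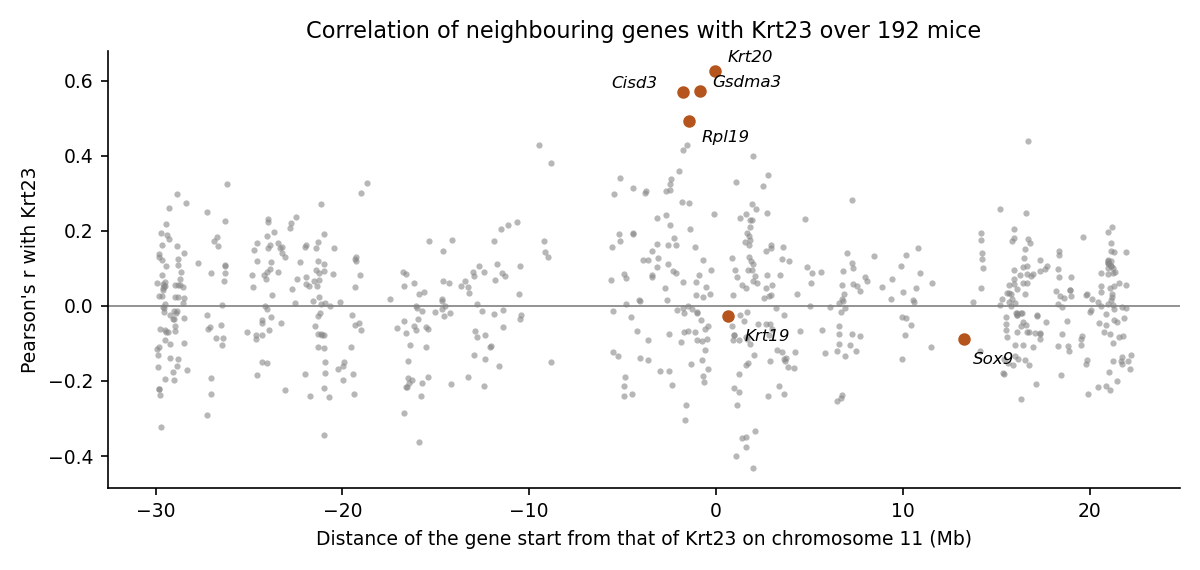
Pearson's r with Krt23 over 192 mice (y axis) for each named gene of chromosome 11 within 30 Mb, after removal of group and generation means, against the distance between gene starts in Mb (x axis). Krt20, Gsdma3, Cisd3 and Rpl19 stand above 0.4 close to Krt23, and Krt19 and Sox9 lie just below 0.

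Krt20, another type I keratin known from intestinal epithelium, moved between the groups in the same directions as Krt23. It was at 0 in 40 mice, and its median signal was 0.274 in chow F mice, 1.59 in high fat F mice, 0.0185 in chow M mice and 0.0772 in high fat M mice. It was lower in M mice by -2.07 ± 0.28 (adjusted p = 1.36e-11) and rose on high fat by 1.60 ± 0.28 (adjusted p = 2.09e-07). The highest Krt20 signal reached 16.0 in high fat F mice and 0.695 in chow M mice, and the groups overlapped at the low end, with mice at 0 in each. Since Krt23 and Krt20 move together and are both in the RefSeq promoter table (GRCm38.p6), the 300 bases from 250 before to 50 after each start site are shown 5′ to 3′ on the gene's strand, the minus strand. Capitals mark matches on either strand of 3 motifs. The E-box was searched as CACGTG, which reads the same on both strands. For the TATA box the letters searched were TATAAA and their reverse complement. The motif of the TEAD factors was written GGAATG, and its reverse complement was searched as well. In Krt20, 2 copies of the TEAD motif overlap.
Krt23, chr11:99493071-99493370: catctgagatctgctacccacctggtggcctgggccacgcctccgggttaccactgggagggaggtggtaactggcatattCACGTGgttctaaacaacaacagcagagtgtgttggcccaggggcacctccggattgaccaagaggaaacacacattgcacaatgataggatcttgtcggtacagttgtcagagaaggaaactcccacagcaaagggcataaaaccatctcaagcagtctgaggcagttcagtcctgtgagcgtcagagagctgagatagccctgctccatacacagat
Krt20, chr11:99438104-99438403: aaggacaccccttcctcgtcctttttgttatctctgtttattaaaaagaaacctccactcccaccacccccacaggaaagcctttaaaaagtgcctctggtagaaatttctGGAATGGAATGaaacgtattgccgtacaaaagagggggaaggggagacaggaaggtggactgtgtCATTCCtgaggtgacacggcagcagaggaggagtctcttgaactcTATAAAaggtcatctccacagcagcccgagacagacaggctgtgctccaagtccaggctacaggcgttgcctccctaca
The Krt23 window holds an E-box that begins at -169, counted with the start site as 0, with neither a TATA box nor a TEAD motif. In the Krt20 window there is a TATA box at -29, and the TEAD motif at -139, -134 and -74, but no E-box. Of the 32851 windows of the same length in the table, 7.15% hold this E-box, 13.6% this TATA box and 14.7% this TEAD motif. The other motif searched, TGGGAA of the Notch partner RBPJ, was in neither window, and 25.6% of all windows hold it. Of the 5 markers, the table also holds Epcam, whose window has the E-box at 30 and none of the other 3 motifs, while Krt19, Sox9 and Cd24a were not matched.

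Sox9 had the smallest p of the 5 between the sexes. On chow its signal ran from 0.0781 through a median of 0.302 to 0.966 in F mice and from 0.162 through 0.728 to 2.32 in M mice. On high fat it ran from 0.138 through 0.285 to 0.645 in F mice and from 0.211 through 0.591 to 1.29 in M mice. The ranges overlapped, with 45 of 48 chow M mice and 43 of 46 high fat M mice above the F median of their diet, and 21 high fat M mice above every high fat F mouse. Sox9 was higher in M mice by 0.97 ± 0.084, 1.96-fold (adjusted p = 2.97e-22). The difference was 0.95 ± 0.11 in G11L1 mice and 1.00 ± 0.12 in G11L2 mice. No diet difference was called: it was -0.11 ± 0.084 over both sexes (adjusted p = 0.277, 95% interval -0.27 to 0.06), -0.03 ± 0.12 in F mice and -0.18 ± 0.12 in M mice.

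The transcripts most like Sox9 over the 192 mice were Chka (r = 0.47), which encodes choline kinase, Hes1 (0.45), a repressor that Notch signalling switches on, Rfxank (0.45), Lrfn3 (0.43) and Nedd4l (0.43), a ubiquitin ligase. In the generations taken apart, r lay between 0.36 and 0.50 for these 5. Hes1 itself did not pass limma's test between sexes (0.02, adjusted p = 0.81) or diets (0.02, adjusted p = 0.862). Its diet differences in F mice (0.24) and M mice (-0.21) differed by -0.45 ± 0.15 (limma interaction, adjusted p = 0.0394). That interaction was not called once values were rescaled by median-of-ratios factors.

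Cd24a differed with both sex and diet. Its signal on chow ran from 0.185 through a median of 0.402 to 1.09 in F mice and from 0.1 through 0.273 to 0.803 in M mice. On high fat it ran from 0.0996 through 0.496 to 1.34 in F mice and from 0.105 through 0.454 to 1.8 in M mice. In M mice Cd24a was lower by -0.33 ± 0.083, so F mice had 1.25 times the M level (adjusted p = 0.000216), and the high fat medians of the sexes lay closer than the chow medians. High fat raised it by 0.45 ± 0.083, 1.37-fold (adjusted p = 7.33e-07), in F mice by 0.37 ± 0.12 (adjusted p = 0.00775) and in M mice by 0.54 ± 0.12 (adjusted p = 4.93e-05). Of the high fat M mice, 38 of 46 lay above the chow M median, and of the high fat F mice 31 of 48 above the chow F median. The rise was 0.40 ± 0.11 in G11L1 mice and 0.51 ± 0.12 in G11L2 mice, both called, while in F mice of G11L1 alone it was 0.21 ± 0.15 and not called (adjusted p = 0.379).

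Closest to Cd24a in pattern were Cdc25b (r = 0.53), a phosphatase that starts mitosis, Lsp1 (0.50), a protein of white blood cells, Slc4a1 (0.50), the anion exchanger of red cells, Trim59 (0.49) and S100a11 (0.47). Cd24a is also known from red cell precursors, neutrophils and B cells, whose markers were therefore read beside it. Of 6 tested neutrophil genes, 5 rose on high fat and 1 fell, or none fell after rescaling, and 4 of 6 were lower in M mice. Of all genes, 15.0% rose and 41.9% fell on high fat, and 45.0% were higher and 23.5% lower in M mice. S100a8 and S100a9, which form the calprotectin of neutrophils, rose by 0.68 ± 0.13 and 0.80 ± 0.15. Of 6 erythroid genes, 4 were lower and 1, Alas2, higher in M mice, with none up and 1 down on high fat, or none down after rescaling. Within M mice, however, Hba-a2, Hbb-bs, Hbb-bt and Slc4a1 rose on high fat and Alas2 fell, or 4 rose and none fell after rescaling. Of all genes 11.4% rose within M mice. Within F mice none of the 6 was called for diet. Of 5 B cell genes, 4 were lower in M mice and none was called for diet by limma. Median summed neutrophil signal was 1.10, 1.53, 0.809 and 1.24 in chow F, high fat F, chow M and high fat M mice, with ranges of 0.456 to 5.88, 0.489 to 7.89, 0.302 to 4.84 and 0.445 to 3.85, and 1 of the 7 listed genes, Camp, had a median of 0. Summed erythroid signal had medians of 85.7, 93.3, 79.3 and 99.9 in the same order and ranged from 6.82 to 620 over all mice. That sum joins genes that differ between the sexes in opposite directions. Alas2 had medians of 3.87, 3.50, 46.9 and 21.7 in the same order, and the globin gene Hba-a2 31.8, 28.7, 10.15 and 23.0. Summed B cell signal had medians of 4.11, 4.19, 3.27 and 3.27. The part of these blood cells in the differences of Cd24a was not tested.

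Epcam was low in nearly all mice and high in a few. On chow its signal ran from 0.0512 through a median of 0.161 to 0.344 in F mice and from 0.0282 through 0.152 to 2.80 in M mice. On high fat it ran from 0.0287 through 0.214 to 2.40 in F mice and from 0.0208 through 0.193 to 3.34 in M mice. Only 4 of the 192 mice exceeded 1, and they were spread over 3 groups. High fat raised Epcam by 0.33 ± 0.11, 1.26-fold (adjusted p = 0.00488), and 37 of 48 high fat F mice and 30 of 46 high fat M mice lay above the chow median of their sex. The rise passed in F mice (0.43 ± 0.15, adjusted p = 0.0186), though in neither generation of them alone nor with a pseudocount 10 times larger (adjusted p = 0.0506). In M mice it did not pass (0.24 ± 0.15, adjusted p = 0.182), and it did in M mice of G11L1 alone (0.49 ± 0.17, adjusted p = 0.0221). Over both sexes it was 0.41 ± 0.12 in G11L1 mice (adjusted p = 0.00479) and 0.24 ± 0.17 in G11L2 mice, where it was not called (adjusted p = 0.265). Between the sexes Epcam differed by -0.03 ± 0.11 (adjusted p = 0.843, 95% interval -0.24 to 0.19).

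The mice with the most Epcam fell into unlike kinds. A high fat M mouse had an Epcam signal of 3.34, and 2 chow M mice had 2.80 and 1.54. In the same mice Krt8 reached 193, 205 and 213, against a median of 41.9 over all mice, and Tnfrsf12a, the receptor of the progenitor mitogen TWEAK, 9.63, 9.80 and 15.9. Their Krt19 was 0.235, 0.134 and 0.216, against a median of 0.166 over all mice. Cd24a was 0.235, 0.453 and 0.270 in them, against 0.386. Their Sox9 was 0.755, 0.905 and 1.37, against medians of 0.591 in high fat and 0.728 in chow M mice. All of these mice belong to the 10 least alike the others. The other mouse, on high fat and named F, had an Epcam signal of 2.40 with a Krt8 of 40.2 and a Tnfrsf12a of 0.765, and it is the mouse with the highest Krt19. The closest genes in pattern were Srxn1 (r = 0.57), an enzyme against oxidative damage, Sprr1a (0.55), Tnfrsf12a (0.54), Tes (0.54) and Glis3 (0.54). Without the 10 least alike mice these r were 0.24, 0.32, 0.30, 0.30 and 0.32, so their size rested largely on those mice.

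Krt19 was not called in any comparison after adjustment. Its signal on chow ran from 0.0714 through a median of 0.157 to 0.360 in F mice and from 0.0282 through 0.176 to 0.557 in M mice. On high fat it ran from 0.0179 through 0.161 to 2.46 in F mice and from 0.0508 through 0.174 to 0.920 in M mice. The groups lay over each other. The difference between sexes was 0.06 ± 0.081 (adjusted p = 0.509, 95% interval -0.10 to 0.22) and that between diets 0.07 ± 0.081 (adjusted p = 0.473, 95% interval -0.09 to 0.23). On this scale, which understates changes of low genes, these intervals reach 1.17-fold, and that between diets within F mice reaches 1.24-fold. With 0.1 times the pseudocount the differences were 0.079 ± 0.11 between sexes and 0.085 ± 0.11 between diets, so larger changes of the signal are not excluded.

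A single mouse stood apart for Krt19. A high fat F mouse had a signal of 2.46, worth about 167 reads, where the next highest mouse had 0.920. Muc6 and Tff2, a mucin and a trefoil peptide of gastric and duodenal mucous glands, and Gkn3, a gastrokine of the stomach, were also highest in it. Its Muc6 was 23.1 against 0.295 in the next mouse, its Tff2 42.5 against 2.07 and its Gkn3 16.7 against 0.0656. Cftr, the chloride channel of duct epithelium, was highest there too, at 1.21 against 0.458. In this mouse Cd24a ranked 2, Epcam 3 and Krt23 11 from the top of the 192, whereas Sox9 ranked 169 and Spp1, a secreted protein made by cholangiocytes, 158. Pancreatic Cpa1 was 0 in it. Muc6, Tff2 and Cftr were chosen after their values were seen.

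This mouse weighs on the likeness of other genes to Krt19. The 5 most alike were Dmbt1 (r = 0.44), a secreted protein of duct and gut epithelium, Vil1 (0.44), villin of the brush border, Gkn3 (0.42), Cybrd1 (0.42) and Spint1 (0.42), an inhibitor of epithelial proteases. Without it the r of Dmbt1 was 0.40 and that of Spint1 0.32, while those of Vil1 and Cybrd1 were 0.22 and 0.26 and that of Gkn3 was -0.01.

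None of the 5 genes was called for a diet response that differed between the sexes, or for a difference between the generation labels. For the interaction, the diet difference in M mice minus that in F mice, none of the 5 was called by limma and none had an unadjusted p under 0.05, with 8.37% of all genes called. Its estimates were -0.18 ± 0.42 for Krt23, 0.17 ± 0.17 for Cd24a, -0.19 ± 0.21 for Epcam, -0.15 ± 0.17 for Sox9 and -0.03 ± 0.16 for Krt19. Within F mice 3 of the 5 rose on high fat, against 10.0% of all genes, and within M mice 2, against 11.4%. Between G11L2 and G11L1 none of the 5 was called by limma, as against 0.938% of all genes, and Krt19 alone had an unadjusted p under 0.05 (-0.16 ± 0.081, p = 0.0467).

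Within the groups few pairs of the 5 genes were called as correlated. Counting error lowers r, with median values worth about 11 reads for Krt19 and Epcam, 23.5 for Cd24a and 26 for Sox9. A low r therefore does not show that the genes of a pair vary apart. Pearson's r and Spearman's rho of the log2 signal were taken for the 10 pairs in each of the 4 groups, 40 relations in all, with two-sided permutation tests of 100000 resamples adjusted over the 40. By r, 2 relations passed, both in high fat F mice: Cd24a with Epcam and Krt19 with Epcam. Cd24a with Epcam had an r of 0.61 (permutation p = 1e-05, the smallest that the resamples can give, adjusted p = 0.0004) and a rho of 0.54 (adjusted p = 0.0032), and r was 0.53 without the 2 mice farthest from the median of Cd24a. In high fat M mice its r was 0.39 (adjusted permutation p = 0.109) with a rho of 0.55 (adjusted p = 0.0032), in chow M mice 0.27 (adjusted p = 0.38) and in chow F mice 0.01 (adjusted p = 0.965). In high fat M mice it passed by r as well without the 10 least alike mice (0.62, adjusted permutation p = 0.0006) and with 0.1 times the pseudocount (0.45, adjusted p = 0.0271). These differences between groups were not tested.

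The relation of Krt19 with Epcam in high fat F mice rested on the mouse with the highest Krt19. Its r was 0.56 (adjusted permutation p = 0.0214) with that mouse, 0.23 without it (permutation p = 0.114) and 0.33 without the 2 mice farthest from the median of Krt19, and rho was 0.25 (adjusted p = 0.315). In the other groups r of this pair lay between 0.19 and 0.33, with no adjusted p under 0.05, though in chow M mice without the 10 least alike it was 0.42 (adjusted permutation p = 0.0441). By rho, Sox9 with Epcam also passed in high fat F mice (0.42, adjusted p = 0.0439, with r at 0.23). Krt23 passed with none of the others in any group, and its r lay between -0.31 and 0.19.

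Over all 192 mice, with group and generation means removed and given as a description, Cd24a with Epcam had the highest r at 0.36, which was 0.12 in G11L1 mice and 0.53 in G11L2 mice. Krt19 with Epcam followed at 0.34, or 0.23 without the mouse with the highest Krt19, and Sox9 with Epcam at 0.19. Of the 50 genes most like each of the 5, Cd24a and Epcam shared 5 (Ccdc120, Elovl7, S100a11, Spint1 and Spp1), which is 10.0% of either list. Krt23 shared none with the other 4, and Spint1 was on the lists of Krt19, Cd24a and Epcam.

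**Figure D4:**
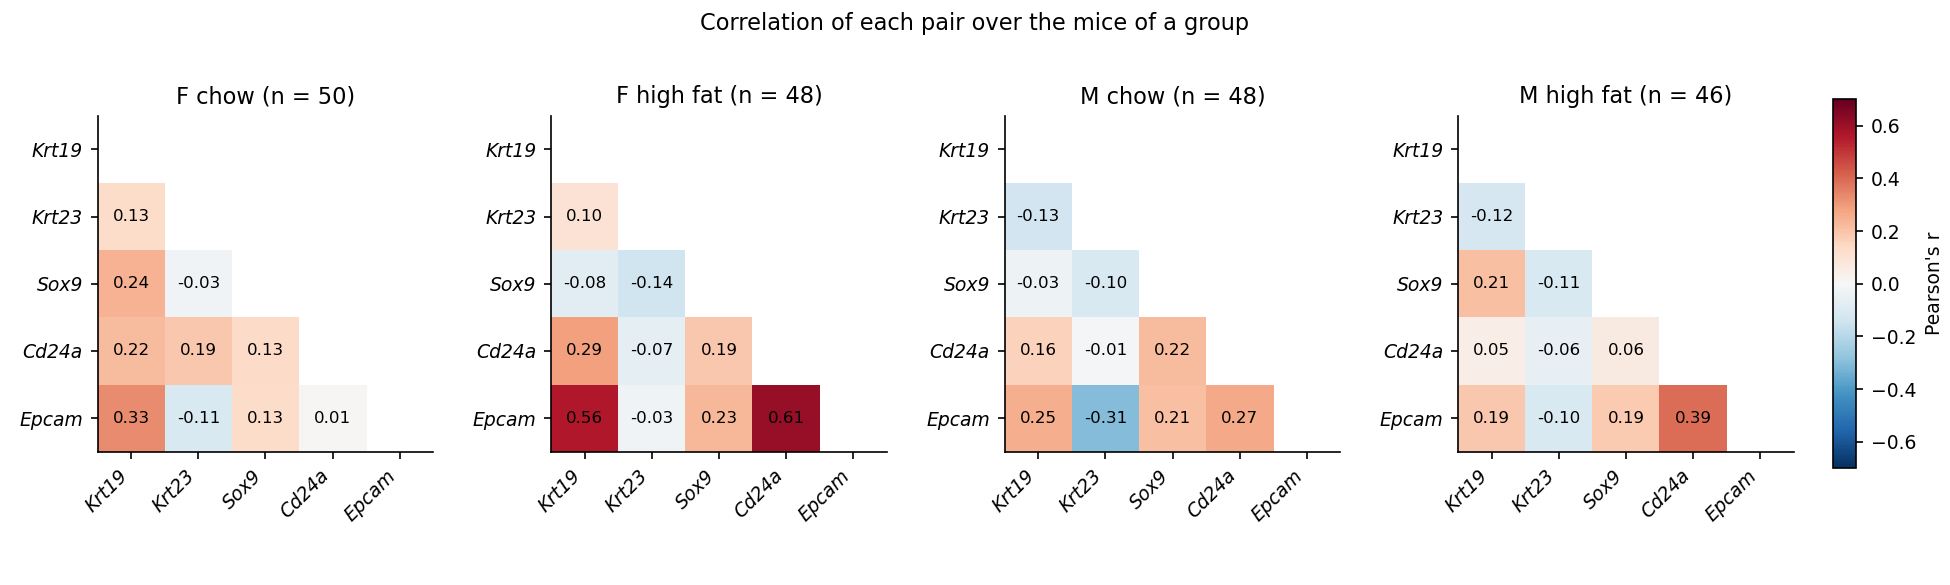
Pearson's r of the log2 signal for each pair of the 5 genes (rows and columns) over the mice of 1 group per panel, with red for positive and blue for negative r. Cd24a with Epcam reached 0.61 in high fat F mice and 0.39 in high fat M mice. The r of Krt23 with the other genes stayed between -0.31 and 0.19. The 0.56 of Krt19 with Epcam rested on a single mouse.

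The other bile duct genes did not move together with sex. Of 23 on the list, 19 were tested: 5 were higher in M mice, 5 lower and 9 not called, or 5 higher and 8 lower once values were rescaled by median-of-ratios factors. Of all genes 45.0% were higher in M mice and 23.5% lower. The median difference was 0.07 for the list and 0.07 for all genes. Prom1, the surface protein CD133 of progenitor cells, was far lower in M mice (-3.94 ± 0.12), with chow medians of 3.31 in F mice and 0.118 in M mice. Slc10a2, the bile acid transporter of the apical membrane, was higher in M mice (1.33 ± 0.15). On high fat, 8 rose, 3 fell and 8 were not called, where 15.0% of all genes rose and 41.9% fell. The median was 0.04 for the list and -0.07 for all genes. Spp1 rose by 0.79 ± 0.12 and Elf3, an epithelial transcription factor, by 0.65 ± 0.099, and the water channel Aqp1 fell by 0.25 ± 0.034. Sctr, the secretin receptor of cholangiocytes, had a median of 0.

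Progenitor and fetal liver genes rose with high fat more often than they fell: of 9 tested, 5 rose and 1 fell, with a median of 0.23, where 15.0% of all genes rose and 41.9% fell. Sox4, a relative of Sox9, rose by 0.78 ± 0.098, the imprinted transcript H19 by 1.31 ± 0.19 and Cd44, a hyaluronan receptor, by 0.33 ± 0.086. Between sexes 2 were higher in M mice and 4 lower, near the 68.5% of all genes called. Dlk1 and Igf2bp3, active in the fetal liver, had medians of 0. Of the 4 tested keratins other than these 5 markers, Krt8 (0.53 ± 0.062) and Krt18 (0.59 ± 0.062) were higher in M mice, and Krt20 was lower.

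In the Notch and Hippo pathways, which set biliary identity during development, all 17 genes were tested, and 7 rose and 5 fell on high fat, or 9 and 3 after rescaling, where 56.9% of all genes were called. Jag1, the Notch ligand of the portal tract, rose by 0.29 ± 0.047 and the ligand Dll4 by 0.26 ± 0.044, while the receptor Notch2 fell by 0.19 ± 0.031 and the Hippo effector Yap1 by 0.13 ± 0.024. Between sexes 6 were higher in M mice and 4 lower, but 3 higher and 5 lower after rescaling, where 68.5% of all genes were called, and Tead1, the partner of Yap1, was lower by -0.76 ± 0.068. The rescaling factors, by which values were divided, differed by 0.09 between sexes (M minus F) and -0.08 between diets (high fat minus chow) on the log2 scale, so that differences moved the other way. None of the calls of Krt23, Sox9, Cd24a and Epcam changed with it.

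To see which cell markers each gene ran with, its deviations were set against the summed signal of 11 marker lists, none of which holds any of the 5, over the 192 mice. In such sums the abundant genes weigh most. The other keratins summed to a median of 69.7 over all mice, where Krt8 had a median of 41.9 and Krt18 of 26.2. The bile duct genes summed to a median of 90.3, where Aqp1 had group medians of 26.1 to 34.3. Of these 55 relations, 17 passed by Pearson's r after adjustment (14 positive, 3 negative), and 15 of them also by rho. Epcam had the strongest, with the other keratins (r = 0.55, rho = 0.27, adjusted permutation p = 0.00011 and 0.00149) and with progenitor genes (r = 0.43, rho = 0.33), which came to 0.29 and 0.28 without the 10 least alike mice. With the summed bile duct genes, r was 0.25 for Epcam (adjusted permutation p = 0.00385), 0.19 for Sox9 (0.0378), 0.18 for Krt19 (0.0444), 0.11 for Cd24a (0.266) and -0.06 for Krt23 (0.534). Of the 3 negative relations, 2 were of Krt23, with neutrophil genes (r = -0.24, adjusted permutation p = 0.00385) and progenitor genes (-0.22, 0.0117). The other was Krt19 with erythroid genes (-0.19, 0.0378), which did not pass by rho. Krt23 also had a positive r with mesothelial genes (0.18, 0.0444).

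Markers of other cell types ran with some of the 5 at least as closely. Cd24a had an r of 0.40 with erythroid genes (rho = 0.34) and of 0.36 with neutrophil genes (rho = 0.35, adjusted permutation p = 0.00011 for both r), in G11L1 mice 0.41 and 0.23 and in G11L2 mice 0.39 and 0.47. With B cell genes its r was 0.095 (adjusted permutation p = 0.319). Csf3r weighed most in the neutrophil sum, with group medians of 0.508 to 0.794 where the sum had 0.809 to 1.53. Krt19 had an r of 0.35 with genes of the mesothelium, the cell layer on the liver surface that also makes Krt19, with a rho of 0.38 (adjusted permutation p = 0.00011 and 0.000183), or 0.38 without the mouse with the highest Krt19 and 0.31 without the 2 farthest mice. With stellate cell and fibroblast genes its r was 0.29 (rho = 0.28). Of 7 such genes the collagens Col1a1, Col1a2 and Col3a1 rose on high fat and none fell, where 15.0% of all genes rose and 41.9% fell. The 6 mesothelial genes summed to 0.360 to 4.93 over all mice, with medians of 1.29, 1.38, 1.26 and 1.26 in chow F, high fat F, chow M and high fat M mice. Of 5 tested, 1 was lower in M mice and 1 rose on high fat, where 23.5% of all genes were lower in M mice and 15.0% rose. No difference of Krt19 was called, and the part of these cells in its level was not tested. With acinar genes of the pancreas, an organ whose ducts also make Sox9 and Krt19, r lay between -0.11 and 0.05 for the 5. Cela1 weighed most in this sum, with group medians of 1.071 to 7.216 where the sum had 1.498 to 7.431. Of the 14 acinar genes, 8 had a median of 0. In most mice these r therefore rest largely on Cela1, and the part of pancreatic tissue in the 5 genes was not tested.

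**Figure D5:**
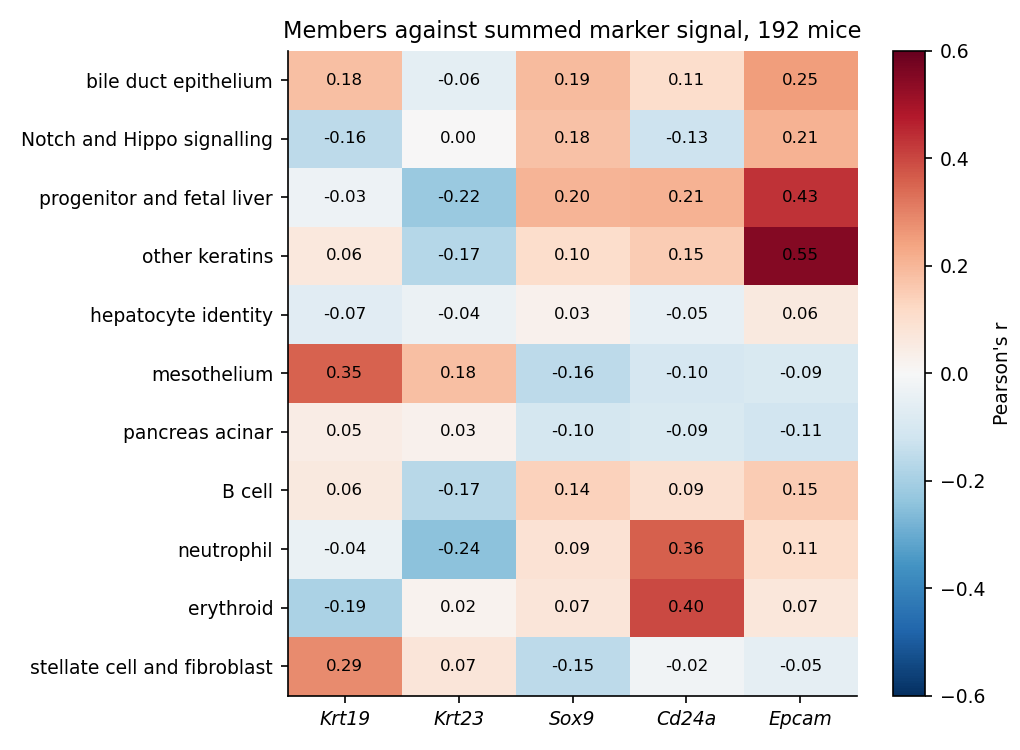
Pearson's r, over 192 mice and after removal of group and generation means, of each of the 5 genes (columns) with the summed signal of each marker list (rows), in red for positive and blue for negative r. Epcam reached 0.55 with the other keratins and 0.43 with progenitor genes, Cd24a 0.40 and 0.36 with erythroid and neutrophil genes, and Krt19 0.35 with mesothelial genes.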

How the data were processed

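The data were RNA-seq of liver from 192 mice, from TruSeq mRNA libraries with 100 bp single-end reads per the labels' protocols. The authors deposited an upper-quartile normalized signal for 21454 Ensembl genes, 1 column per mouse. The submitters' processing notes name CASAVA 1.8.0, GRCm38 and mm10, and the aligner, counter and annotation are not given in the sources used here. Of the identifiers, 432 had no entry in GENCODE M21. Among low values, a median of 80.6% per mouse lay within 0.1 of a whole read, too few for a count test. Values were taken as log2(signal + 0.0629), a pseudocount of 1/100 of the median upper quartile, or about 3.98 reads. Genes above 0 in at least 46 mice with a mean of at least the pseudocount were tested with limma 3.58.1 (trend, R 4.3.3), which was also tested on simulated data. Correlations, permutation tests and figures used Python 3.11.15, NumPy 2.4.6, pandas 2.3.3, SciPy 1.17.1 and matplotlib 3.10.9. P-values measure the spread between mice. The 5 genes and the marker lists were chosen with earlier results of these data known. Genes named from a list are the up to 3 with the smallest p for sex and for diet, and genes named for likeness are the 5 with the highest r, without predicted genes and pseudogenes. S100a8, Camp, Cftr, Cpa1, Hes1, Krt7, Sctr, Dlk1 and Igf2bp3 were named beside these, after their values were seen. Alternatives covered the pseudocount, filter, scaling, generation label, weights and mice left out.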

Additional observations from a re-analysis of the deposited data

Results flagged for a closer look

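Of the 17 genes of the Notch and Hippo list, Notch2 and Hes1 were called for a diet response that differed between the sexes, where 8.37% of all genes were called. Neither call held after rescaling by median-of-ratios factors, with which none of the 17 was called. The diet difference of Notch2, a receptor needed for bile duct formation, was -0.29 in M mice, where it was called, and -0.10 in F mice, where it was not, on the log2 scale, an interaction of -0.18 ± 0.062 (limma, adjusted p = 0.0455). Hes1, the Notch target whose deviations ran with those of Sox9, had a diet difference of 0.24 in F mice and -0.21 in M mice, an interaction of -0.45 ± 0.15 (limma, adjusted p = 0.0394).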

How the results depend on the processing

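Differences below are log2 values. The signs that turned were all of differences that no test had called. With a pseudocount 10 times larger, the sex difference of Epcam came to 0.020, its generation difference to 0.015, that of Krt23 to 0.00028 and the spread of Cd24a by sex to -0.015, and with 0.1 times the pseudocount the interaction of Krt19 came to 0.023. Median-of-ratios rescaling gave -0.00049 for Krt19 by sex, 0.0034 for its interaction, 0.0075 for Sox9 by diet in F mice and -0.0087 for Msln by sex. Quantile normalization gave 0.017 for Epcam by sex and -0.022 for Krt19 by diet in M mice, and normal scores 0.013 for Krt23 by generation. In G11L1 mice alone, Epcam came to 0.033 by sex and 0.15 for the interaction, Krt19 to -0.095 by diet, -0.12 in F mice, -0.071 in M mice and 0.048 for the interaction, Sox9 to 0.031 by diet in F mice, Msln to -0.062 and Pnlip to -0.041 by sex. In G11L2 mice alone, Krt19 came to -0.046 by sex and -0.071 for its spread by sex, Sox9 to 0.034 by diet in M mice and 0.13 for the interaction, Epcam to -0.033 by diet in M mice, Cd24a to -0.042 for the interaction, Upk3b to 0.090 by sex and 0.17 by diet, Upk1b to 0.045 and Ighm to -0.020 by diet. Without the 10 least alike mice Krt23 by generation was 0.054. Without the mouse with the highest Krt19, left out after seeing the data, Epcam by sex was 0.0073 and the interaction of Krt19 0.039. Counts of the 5 genes called came to 2 in place of 3 by diet in either generation alone, and in F mice with the larger pseudocount or in G11L2 mice. Larger moves of the counts were these. With a mean of at least 10 pseudocounts only Krt23 was tested, so the count was 1 by sex, by diet, in F mice, in M mice and for spread by diet. By diet in F mice it was 0 in G11L1 mice. By diet in M mice it was 1 with normal scores, array weights or without the 10 least alike mice. Spread by sex gave 0 in G11L2 mice, and with the larger pseudocount Sox9 was called in place of Krt23, and spread by diet 1 with either other pseudocount, quantile normalization or without the mice of high pancreatic signal, and 0 in either generation or without the 10 least alike mice. Of the 40 pair correlations, 1 was called with the larger pseudocount, without the 2 farthest mice or without that mouse, 4 without the 10 least alike and 3 with 0.1 times the pseudocount or by rho. Of all alternative values of the 5 genes, 511 kept direction and call, 23 lost the call, 2 gained it and 27 turned sign. The mouse numbers shared by 92 pairs of F and M mice did not pair them, with a median correlation of deviations of 0.00304 and 9 pairs over 0.1. With the mouse number as a replicate block, the sex difference of Krt23 was -1.48 and no count of calls changed. Depth limits Krt19 and Epcam most, at about 11 reads in the median mouse.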
